A study of Mus musculus with 32 samples.

Results

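The genes described here are 32 cell cycle and mitosis genes, measured by RNA sequencing in whole mouse bladders. They were taken by gene symbol, and each symbol matched 1 Ensembl identifier among the 32285 genes of the count table. The list was drawn up with earlier results of these data known, and membership went by symbol with no threshold on a value. They fall into 5 roles: 6 genes of DNA replication and nucleotide supply, 6 cyclins, Cdk1 and their regulators, 6 mitotic kinases and checkpoint genes, 6 chromosome and centromere genes and 8 genes of the spindle, its midzone and cytokinesis.

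The 32 bladders came from female C57BL/6 mice, 1 library each. Young mice (n = 6) were 2 months old, middle-aged mice (n = 5) were 10 months old and untreated old mice (n = 6) were 26 months old, and none of these had been gavaged. The 3 other groups were also 26 months old and had been gavaged on 3 consecutive days each month from 21 to 26 months. They received water (n = 5), vehicle (n = 4; 60% Phosal 50 PG, 30% polyethylene glycol and 10% ethanol) or D+Q (n = 6; 5 mg/kg/day dasatinib, a tyrosine kinase inhibitor, and 50 mg/kg/day quercetin, a plant flavonoid, a pair used to clear senescent cells). No transgene or deletion is named for any group, and RNA was taken from the whole organ, so that urothelium, muscle, stroma, vessels and any immune cells were measured together.

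A dividing cell copies its DNA once in S phase, after the MCM helicase has been loaded onto replication origins and while ribonucleotide reductase supplies deoxynucleotides. Cdk1 bound to cyclins A and B then drives entry into mitosis, where Aurora and Polo kinases, the centromere and the spindle checkpoint act before the cytoplasm divides. Most of these transcripts accumulate only in cycling cells, which is why they are widely read as markers of proliferation. The adult urothelium and detrusor are known for slow turnover. In RNA from a whole organ, more cycling cells and more transcript per cycling cell cannot be told apart.

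Transcription of many of these genes is known to be held down in resting cells by the DREAM and RB complexes, which act through 2 short promoter elements, the CHR and the E2F site. Many mitotic promoters also carry CCAAT boxes, which bind NF-Y. The RefSeq promoter table (GRCm38.p6, the assembly of the count table; 250 bases before and 50 after each gene start) held 27 of the 32 members. Ccna2, Foxm1, Aurkb, Kif20a and Tpx2 were not among them. The sequences of 5 members are shown: Cdk1, Top2a and Mki67 because they moved with age and carry the letters of several elements, Mcm5 as a replication gene with an E2F match, and Tyms as the member that stayed level. Each run is the 150 bases just before the RefSeq start, 5′ to 3′ on the gene's own strand, and capitals mark CCAAT, the CHR letters TTTGAA or TTCGAA, and the E2F letters TTTCCCGC, TTTGGCGC, TTTCGCGC or TTTGCCGC, each on either strand. The Cdk1 run is chr10:69352913-69353062 (minus strand), of which 26 bases lie inside the GENCODE gene, the Top2a run chr11:99024190-99024339 (minus), the Mki67 run chr7:135716380-135716529 (minus), the Mcm5 run chr8:75109359-75109508 (plus) and the Tyms run chr5:30073626-30073775 (minus).
Cdk1: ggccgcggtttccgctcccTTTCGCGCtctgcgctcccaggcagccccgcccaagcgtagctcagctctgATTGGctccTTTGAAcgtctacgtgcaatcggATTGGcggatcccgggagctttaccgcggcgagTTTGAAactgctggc
Top2a: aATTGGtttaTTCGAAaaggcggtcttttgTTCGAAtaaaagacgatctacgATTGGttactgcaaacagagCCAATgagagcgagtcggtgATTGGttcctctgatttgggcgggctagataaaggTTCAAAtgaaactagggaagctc
Mki67: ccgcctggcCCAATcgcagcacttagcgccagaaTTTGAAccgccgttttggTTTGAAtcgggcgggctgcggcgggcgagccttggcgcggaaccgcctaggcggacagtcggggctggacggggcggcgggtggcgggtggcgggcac
Mcm5: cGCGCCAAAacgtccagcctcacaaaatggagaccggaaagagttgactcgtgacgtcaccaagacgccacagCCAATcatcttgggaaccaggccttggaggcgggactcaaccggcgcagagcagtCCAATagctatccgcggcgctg
Tyms: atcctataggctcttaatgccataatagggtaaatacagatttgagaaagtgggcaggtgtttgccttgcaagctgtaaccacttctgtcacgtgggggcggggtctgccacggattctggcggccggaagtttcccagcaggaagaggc

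In these windows Cdk1 carried 2 CCAAT boxes, 2 CHR matches and 1 E2F match. Top2a carried 4 CCAAT boxes and 3 CHR matches. Mki67 carried 1 CCAAT box and 2 CHR matches. Mcm5 carried 2 CCAAT boxes and 1 E2F match but no CHR letters, and the Tyms window held none of the 3 motifs. Over the full 300-base windows, CCAAT was present in 24 of the 27 members and in 41.1% of all 27025 genes of the table. The CHR letters were present in 18 of the 27 members and in 21.7% of all genes, and the E2F letters in 4 of the 27 members and in 2.6% of all genes. By role, the CHR letters were in 5 of 5 mitotic kinase and checkpoint promoters and in 1 of 6 replication promoters (Mcm2), whereas the E2F letters were in 3 of 6 replication promoters (Mcm3, Mcm5 and Mcm6) and otherwise in Cdk1. The windows of Birc5, Nusap1 and Tyms held none of the 3. A match is a description of letters and not a bound site.

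Library depth ranged from 15088372 to 52650259 counts per bladder, and young bladders 3 and 4 were the shallowest (15088372 and 16881598 counts). No member was at 0 counts in any bladder, and all 32 passed the filter on low counts in every comparison. The lowest count of any member was 5 (Bub1 and Kif4), and 4 members (Bub1, Kif4, Ttk and Ccnb1) had fewer than 10 counts in at least 1 bladder, so that their values carry the largest counting error. Levels are given as CPM, counts scaled by library size, after TMM scaling over all 6 groups. Fold changes are log2 values from edgeR's quasi-likelihood test with their standard error (SE), and adjusted p is Benjamini-Hochberg over all genes tested, with 0.05 as threshold. Each mouse gave 1 library, so the error covers the spread between mice.

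The members were low to moderate transcripts at every age. Per transcript length, in TPM, their group means in young bladders ran from 0.777 (Cenpf) to 21.3 (Mcm6), with a median of 3.65. In middle-aged bladders the median of the 32 means was 1.75 TPM, and in untreated old bladders 3.02 TPM. Mcm6, a helicase subunit, was the most abundant member per length in all 6 groups. Mki67, which encodes the proliferation antigen Ki-67, averaged 5.16 ± 3.54 TPM in young (SD, n = 6), 1.63 ± 0.545 in middle-aged (n = 5) and 7.22 ± 2.43 in untreated old bladders (n = 6).

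Added together, the 32 members gave 226 ± 102 CPM in young bladders (SD, n = 6), 130 ± 8.96 in middle-aged (n = 5) and 211 ± 35.4 in untreated old bladders (n = 6). The 5 middle-aged bladders were close to each other at 128, 145, 122, 128 and 126 CPM. The young bladders were not: bladders 1, 2 and 6 gave 404, 278 and 227 CPM, whereas bladders 3, 4 and 5 gave 154, 148 and 146 CPM, just above the highest middle-aged bladder. The coefficient of variation of the sum was 45.2% in young and 6.91% in middle-aged bladders, and the median over single members was 57.5% and 21.8%. Young bladder 1 was the highest young bladder for 31 of the 32 members. Untreated old bladders ran from 169 to 275 CPM with a median of 204, so that each lay above every middle-aged bladder and within the young range.

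**Figure D1:**
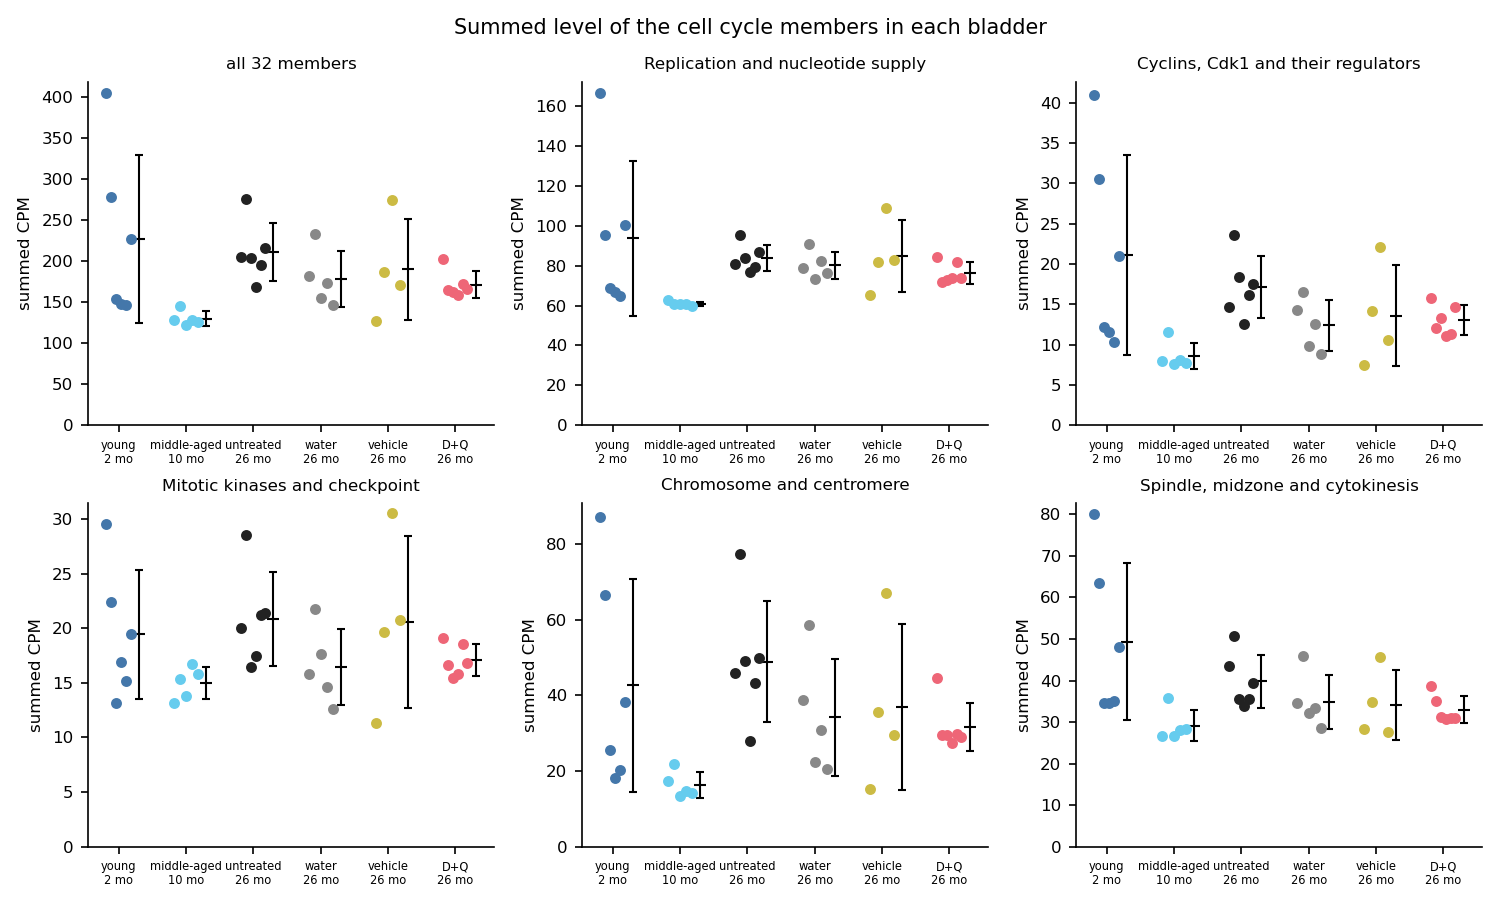
Summed CPM of all 32 members and of each of the 5 roles in each bladder (1 point per bladder, in replicate order; bars, mean ± SD; 6 groups on the x axis). The 5 middle-aged bladders sit at 122 to 145 CPM for all members, the 6 untreated old ones at 169 to 275, and the young ones spread from 146 to 404.

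From 2 to 10 months the cell cycle genes fell. Of the 32 members, 18 were lower in middle-aged than in young bladders and none was higher (edgeR, adjusted p under 0.05), against 5.85% of all 16754 genes tested that were lower. The median log2 fold change of the members was -1.15, and of all genes tested 0.00. The fall was widest in the chromosome and centromere genes, of which 5 of 6 passed the test, and in the cyclins and their regulators, with 4 of 6. It was found in 3 of 6 mitotic kinase and checkpoint genes, 4 of 8 spindle genes and 2 of 6 replication genes. In 5 members (Mcm5, Mcm6, Cdk1, Ttk and Birc5) every middle-aged bladder lay below every young one, which held for 3.59% of all genes tested.

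How many members passed rested on single bladders in both groups. Leaving out young bladders 1, 2 or 6 left 8, 4 and 6 members, and leaving out middle-aged bladders 1 to 5 in turn left 4, 8, 4, 5 and 2. By limma on log2(TPM + 1) and log2(TPM + 0.1) 2 and 4 members were lower, and with all 6 groups in 1 fit 28. Without young bladders 1 and 2 together, only Cdk1 remained past the threshold (log2 -0.85, adjusted p = 0.0321), and without young bladders 3 and 4 together, the shallowest, 30 members passed. These pairs were left out after the values were seen, and bladders 1 and 2 had the highest summed members of the young group. Cdk1 and Birc5 passed in all 20 settings run (all genes in the same bladders under 9 procedures, and each of 11 bladders left out), Ccnb1 and Ttk in 18 of 20, and Mki67 in 14. Other falls given below were less stable: Kif11 passed in 12 of 20, Mcm5 and Ube2c in 10, Top2a and Rrm2 in 9 and Aurkb in 7. No member but Tyms changed direction in any of the 20.

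At 26 months the members stood above their level at 10 months. This comparison shares the middle-aged bladders with the one before. In untreated old against middle-aged bladders 25 of the 32 members were higher and none was lower, against 13.0% of all 17156 genes tested that were higher. The median log2 fold change of the members was 0.92, and of all genes tested 0.00. All 6 cyclins and regulators and all 6 chromosome and centromere genes passed, with 5 of 6 replication genes, 5 of 8 spindle genes and 3 of 6 mitotic kinase and checkpoint genes. In 19 members every untreated old bladder lay above every middle-aged one, which held for 8.49% of all genes tested. The 7 members that did not pass were Tyms, Plk1, Aurka, Bub1b, Kif20a, Kif23 and Ect2, with log2 fold changes from -0.01 to 0.43. Leaving out any 1 of the 11 bladders gave 23 to 26 members higher.

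**Figure D2:**
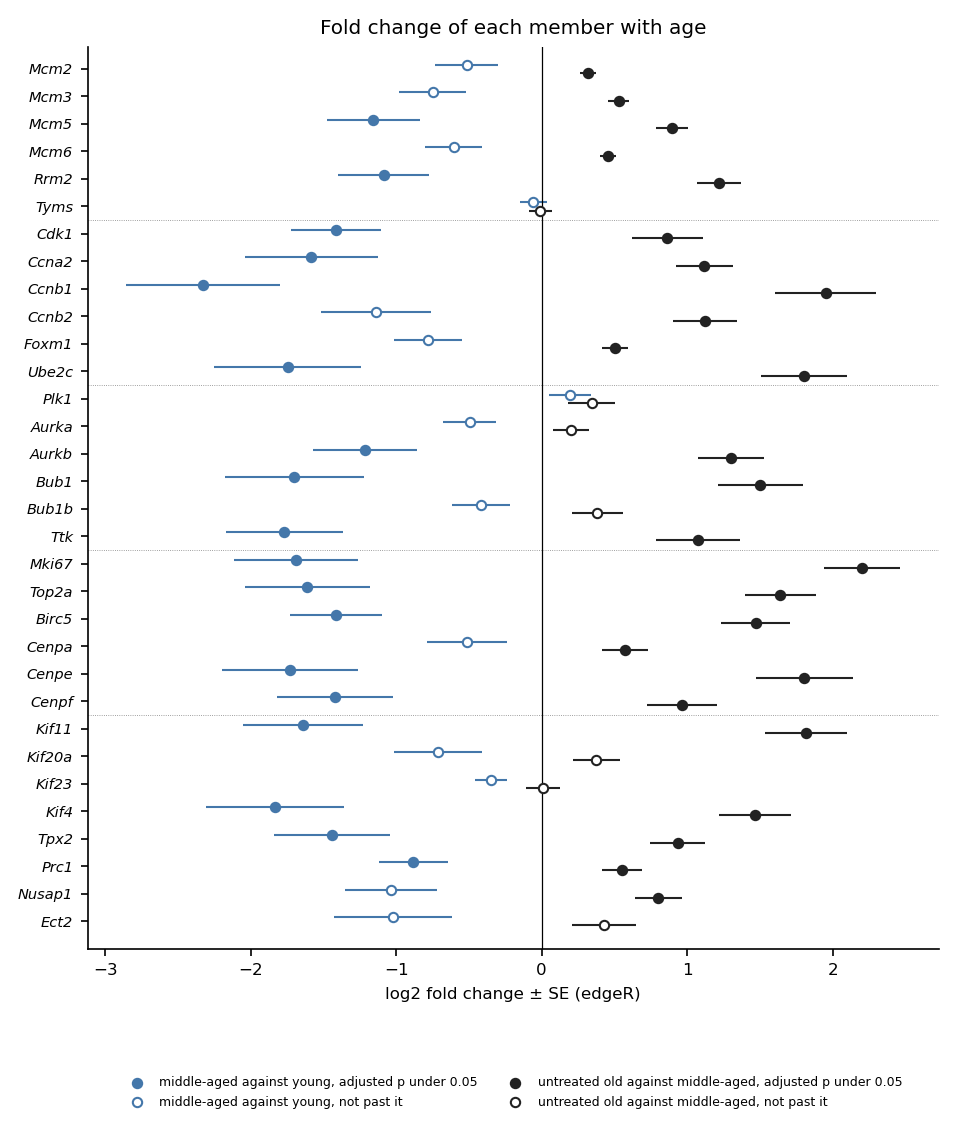
Log2 fold change (x axis, edgeR) with its SE for each of the 32 members, grouped by role: blue, middle-aged against young; black, untreated old against middle-aged. Filled points passed an adjusted p of 0.05, which 18 members did in the first comparison and 25 in the second; Tyms lies at 0 in both. Both comparisons share the middle-aged bladders.

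Among the replication genes, Mcm2 and Mcm5 encode subunits of the replicative helicase and Rrm2 the regulatory subunit of ribonucleotide reductase. Mcm5 was at 6.43 CPM in the lowest young bladder, with a median of 10.3 and a highest value of 26.1. The middle-aged bladders were at 5.77, 5.36, 5.34, 5.66 and 5.43 CPM, all below the young ones and nearly equal to each other. Untreated old bladders ran from 8.48 to 13.7 CPM with a median of 9.52, all above the middle-aged ones. Mcm5 fell by 1.16 on the log2 scale to middle age (SE 0.320, adjusted p = 0.0370) and was 0.90 higher at 26 months (SE 0.111, adjusted p = 0.000115).

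Rrm2 was at 2.59 to 11.4 CPM in young bladders (median 4.75), and at 3.03, 2.85, 2.33, 2.55 and 2.63 CPM in the middle-aged ones, which overlapped the lowest young bladders. In untreated old bladders it was at 3.88 to 7.28 CPM (median 6.51), above every middle-aged one. Its log2 fold change was -1.09 (SE 0.312, adjusted p = 0.0418) to middle age and 1.22 (SE 0.149, adjusted p = 0.000109) from there to 26 months. Mcm2 was at 12.4 to 35.3 CPM in young bladders (median 18.9), at 13.1, 13.6, 15.6, 13.2 and 13.7 CPM in middle-aged ones and at 16.6 to 18.7 CPM in untreated old ones (median 17.2). The step to middle age did not pass the test (log2 -0.52, SE 0.219, adjusted p = 0.145), whereas the old bladders were all above the middle-aged ones (log2 0.32, SE 0.0551, adjusted p = 0.00118). Mcm3 and Mcm6 also rose from middle to old age, by 1.44-fold and 1.37-fold. Tyms, which encodes thymidylate synthase, was the member that stayed level: its group means were 10.6, 10.2 and 10.1 CPM in young, middle-aged and untreated old bladders, and a processed pseudogene of it is annotated.

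Cdk1 encodes the kinase that drives mitotic entry, Ccnb1 its cyclin B1 partner, Foxm1 a transcription factor of late cell cycle genes, and Ube2c the ubiquitin-conjugating enzyme that works with the anaphase-promoting complex. Cdk1 was at 2.39 to 7.62 CPM in young bladders (median 3.07). The middle-aged bladders were at 1.30, 2.25, 1.48, 1.5 and 1.25 CPM, all below the young ones. Untreated old bladders were at 1.98 to 5.02 CPM (median 2.45), and the lowest of them lay below middle-aged bladder 2. Cdk1 fell by 1.41 to middle age on the log2 scale (SE 0.310, adjusted p = 0.0145) and was 0.86 higher at 26 months (SE 0.243, adjusted p = 0.0209). The rise passed in 16 of 20 settings. Among those where it did not were the fits without middle-aged bladder 1 (0.81, adjusted p = 0.0514) or 5 (0.79, adjusted p = 0.0558).

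Ccnb1 had the largest fall of the 32 members. It was at 0.582 to 4.67 CPM in young bladders (median 1.76) and at 0.489, 0.760, 0.219, 0.360 and 0.298 CPM in middle-aged ones, a log2 fold change of -2.33 (SE 0.529, adjusted p = 0.0169). Untreated old bladders were at 0.907 to 2.94 CPM (median 1.42), each above every middle-aged one (log2 1.95, SE 0.346, adjusted p = 0.00144). A pseudogene of Ccnb1 is annotated, as for Ccnb2 and Kif4, and reads shared with it would be assigned uncertainly. Ube2c was at 0.601 to 4.71 CPM in young (median 1.63), at 0.554, 1.30, 0.602, 0.444 and 0.380 CPM in middle-aged and at 1.33 to 2.96 CPM in untreated old bladders (median 2.31). Its log2 fold changes were -1.75 (SE 0.505, adjusted p = 0.0427) and 1.80 (SE 0.296, adjusted p = 0.000848). Foxm1 moved less: young bladders were at 3.26 to 9.27 CPM (median 5.28), middle-aged ones at 3.10, 3.39, 2.90, 3.71 and 3.42, and untreated old ones at 4.00 to 5.00 (median 4.85). The first step missed the threshold (log2 -0.78, SE 0.237, adjusted p = 0.0506), and the second passed it (0.50, SE 0.0912, adjusted p = 0.00165). Ube2c and Ccna2 overlap genes on the other strand and Foxm1 overlaps one on its own strand, and the strand setting of the counting is not given in the sources used here.

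The mitotic kinases and checkpoint genes ran from log2 0.20 to 1.5 in untreated old against middle-aged bladders. Plk1, the Polo-like kinase of centrosome maturation and mitotic exit, was at 4.23 to 7.21 CPM in young bladders (median 5.69) and at 5.22, 5.99, 6.54, 7.93 and 7.14 CPM in middle-aged ones. Its log2 fold change to middle age was 0.19 (SE 0.143, adjusted p = 0.417), the only positive one of the 32. Untreated old bladders were at 5.38 to 10.9 CPM (median 7.96), overlapping the middle-aged ones (log2 0.34, SE 0.161, adjusted p = 0.147). Plk1 was at 13.0 TPM in untreated old bladders, higher per length than Aurka (3.35), Aurkb (2.46) and Ttk (0.483).

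Aurkb, the catalytic subunit of the chromosomal passenger complex, followed the larger pattern. It was at 0.841 to 3.74 CPM in young bladders (median 1.55), at 0.718, 1.24, 0.684, 1.03 and 0.597 CPM in middle-aged ones and at 1.39 to 3.08 CPM in untreated old ones (median 2.01). No old bladder was as low as any middle-aged one, with log2 fold changes of -1.21 (SE 0.361, adjusted p = 0.0473) and then 1.30 (SE 0.228, adjusted p = 0.00134). Ttk, the checkpoint kinase MPS1, was one of the rarest members. It was at 0.582 to 2.50 CPM in young bladders (median 0.913), at 0.457, 0.285, 0.246, 0.444 and 0.217 CPM in middle-aged ones and at 0.425 to 1.13 CPM in untreated old ones (median 0.619). Its log2 fold changes were -1.77 (SE 0.403, adjusted p = 0.0169) and 1.08 (SE 0.290, adjusted p = 0.0169), and all young bladders lay above all middle-aged ones. Bub1, a checkpoint kinase of the kinetochore, had log2 fold changes of -1.70 and 1.5, and Aurka and Bub1b passed in neither comparison.

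Mki67 showed the largest rise of all members. It was at 5.53 to 31.0 CPM in young bladders (median 11.8) and at 5.58, 6.62, 2.87, 4.27 and 3.75 CPM in middle-aged ones, so that the lowest young bladders overlapped the highest middle-aged ones (log2 -1.69, SE 0.426, adjusted p = 0.0252). In untreated old bladders it was at 10.7 to 31.6 CPM (median 21.5), 4.59-fold above middle age (log2 2.20, SE 0.263, adjusted p = 9.0e-05) with no overlap. Top2a, the topoisomerase that untangles sister chromatids, was at 5.23 to 30.7 CPM in young bladders (median 9.07), at 4.04, 5.83, 3.56, 4.77 and 4.12 CPM in middle-aged ones and at 7.82 to 24.4 CPM in untreated old ones (median 12.5). It fell by 1.61 (SE 0.431, adjusted p = 0.0321) and rose by 1.64 (SE 0.245, adjusted p = 0.000445) on the log2 scale.

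Birc5, which encodes survivin, a partner of Aurora B, was at 1.34 to 3.63 CPM in young bladders (median 1.79) and at 0.652, 1.33, 0.602, 0.527 and 0.787 CPM in middle-aged ones, where the highest middle-aged value still lay just below the lowest young one. Untreated old bladders were at 1.62 to 3.13 CPM (median 2.05), all above middle age. The log2 fold changes were -1.42 (SE 0.316, adjusted p = 0.0155) and 1.47 (SE 0.238, adjusted p = 0.000754). The centromere genes Cenpe and Cenpf, a kinetochore motor and a kinetochore protein, moved with them, at -1.73 and 1.80 for Cenpe and -1.42 and 0.97 for Cenpf. Cenpa, the centromeric histone H3 variant, did not pass in the first step (log2 -0.51, adjusted p = 0.252) and rose by 1.49-fold in the second (adjusted p = 0.0190).

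Among the spindle genes Kif11, the bipolar kinesin that pushes spindle poles apart, changed most from middle to old age. It was at 1.57 to 8.78 CPM in young bladders (median 2.92), at 1.08, 1.97, 1.07, 0.970 and 1.44 CPM in middle-aged ones and at 2.67 to 8.15 CPM in untreated old ones (median 4.11). Its log2 fold changes were -1.64 (SE 0.411, adjusted p = 0.0245) and 1.81 (SE 0.282, adjusted p = 0.000595), with no overlap between middle-aged and old bladders. Kif4, a chromokinesin, gave -1.83 and 1.46, and the spindle assembly factor Tpx2 gave -1.44 and 0.94. Kif23, the motor subunit of the midzone complex centralspindlin, and its guanine nucleotide exchange factor partner Ect2 did not pass the test: Kif23 was at 15.5 and 15.6 CPM on average in middle-aged and untreated old bladders (log2 0.01, adjusted p = 0.969) and Ect2 at 1.39 and 1.87 CPM (log2 0.43, adjusted p = 0.186). Kif20a, another kinesin of the midzone, gave a log2 fold change of 0.38 (adjusted p = 0.118), whereas Prc1 and Nusap1, which bundle and stabilise spindle microtubules, rose by 1.47-fold and 1.74-fold. Kif20a, Kif4, Prc1 and Nusap1 overlap genes on the other strand.

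**Figure D3:**
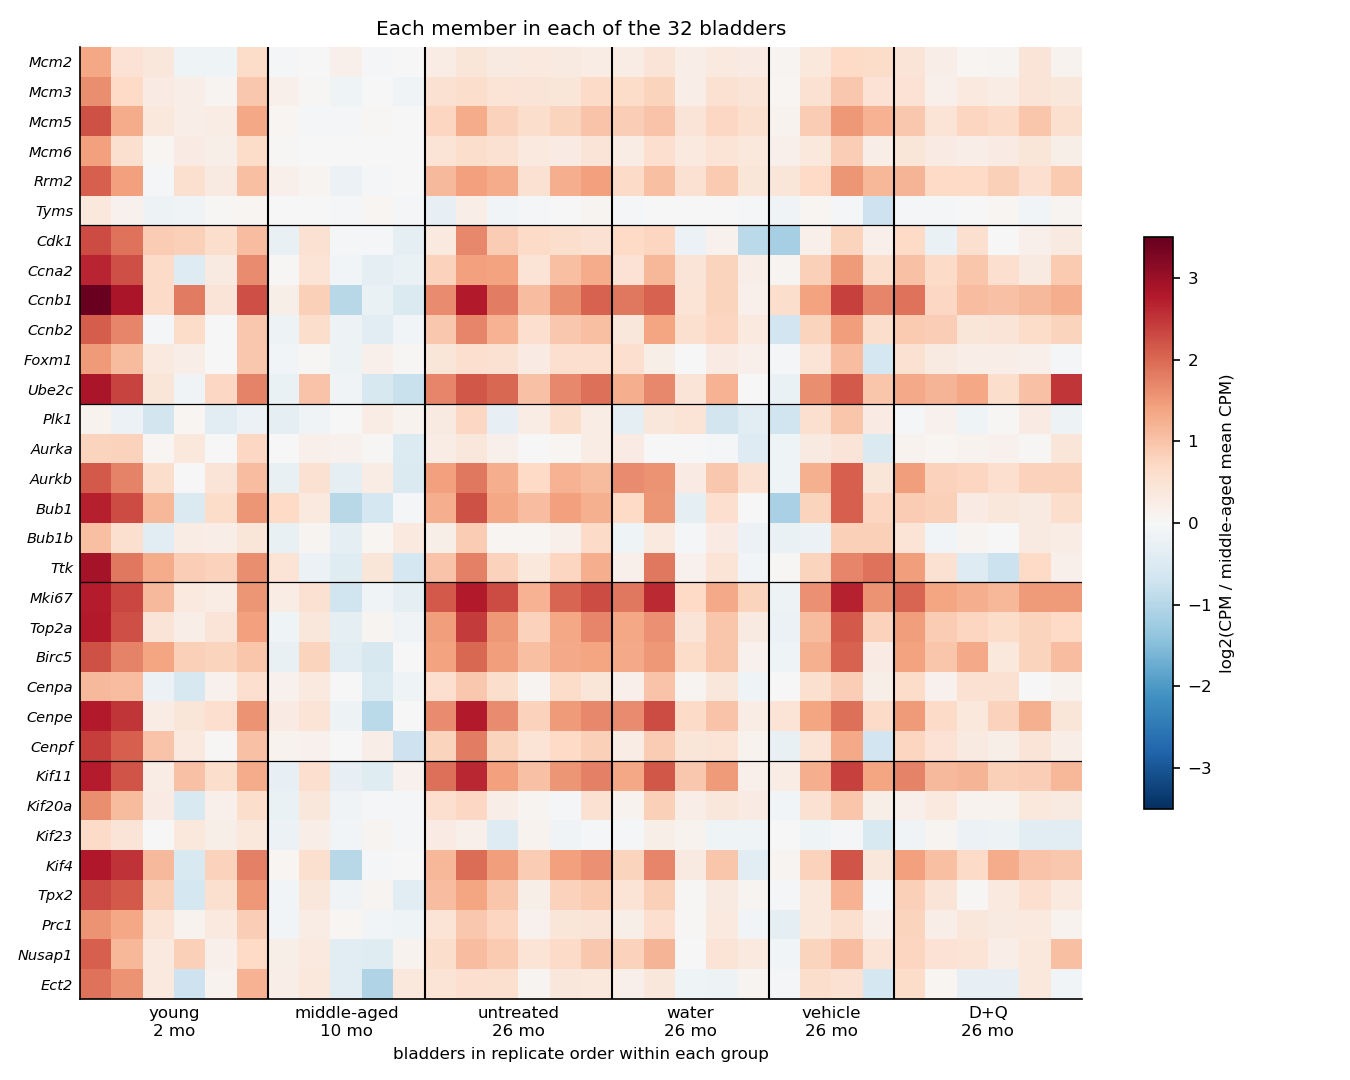
Log2 of each member's CPM over its middle-aged mean (colour scale) in each of the 32 bladders (columns, by group and replicate order; rows, the 32 members by role). Young bladders 1 and 2, untreated old bladder 2, water-treated bladder 2 and vehicle-treated bladder 3 are high across most rows, and Tyms, Plk1, Aurka and Kif23 stay pale.

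Untreated old bladders were also set directly against young ones. Of the 32 members 1 passed the test, Plk1, which was 1.44-fold higher at 26 than at 2 months (log2 0.53, SE 0.167, adjusted p = 0.0334), against 25.1% of all 16873 genes tested that differed in either direction. The median log2 fold change of the members was -0.22. Single members ran from -0.71 (Ttk) to 0.53, with SEs of up to 0.44. In none of the 32 did the bladders of the 2 ages separate without overlap. Of all 16873 genes tested, 1131 had every old bladder above every young one and 1006 had every old bladder below. Plk1 did not pass in 11 of the 22 other settings tried. Without young bladders 1 and 2 the median turned to 0.29 and 4 members were higher in old bladders (Mki67 by 1.27, Kif11 by 0.94, Rrm2 by 0.68 and Plk1 by 0.61 on the log2 scale). Without young bladders 3 and 4 no member was higher and 2 were lower, Ect2 (-0.91) and Kif23 (-0.42). Both pairs were left out after the values were seen. Young bladders 1 and 2 had the highest summed members of their group, and bladders 3 and 4 had lower sums. The direction of both shifts thus followed from the choice and adds nothing on the difference between the 2 ages.

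The 3 gavaged groups gave further bladders at 26 months, all set against the same 5 middle-aged ones. In water-treated old bladders 10 of the 32 members were higher than in middle age and none lower, against 8.02% of all genes tested that were higher, and in 6 members every water-treated bladder lay above every middle-aged one (6.46% of all genes). In vehicle-treated old bladders 5 members were higher and none lower, against 3.02% of all genes, and 3 did not overlap (4.88% of all genes). In D+Q-treated old bladders 16 members were higher and none lower, against 7.58% of all genes, and 8 did not overlap (5.60% of all genes). The median log2 fold changes of the members were 0.58, 0.60 and 0.45. With all 6 groups in 1 fit, 2 members were higher in water-treated and 2 in D+Q-treated bladders.

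Mcm5, Rrm2 and Kif11 were past the threshold in each of these 3 comparisons. Mcm5 gave log2 fold changes of 0.73, 1.03 and 0.72 in water-, vehicle- and D+Q-treated bladders (SE 0.105, 0.220 and 0.0974), Rrm2 0.74, 1.02 and 0.82 (SE 0.142, 0.213 and 0.120), and Kif11 1.38, 1.53 and 1.18 (SE 0.332, 0.379 and 0.213), with adjusted p-values between 0.000367 and 0.0480. Mki67 was 1.63 higher in water-treated bladders (SE 0.362, adjusted p = 0.0121) and 1.5 higher in D+Q-treated ones (SE 0.209, adjusted p = 0.000477). With vehicle its fold change was 1.75, but it did not pass (SE 0.454, adjusted p = 0.0557). The 5 members called in vehicle-treated bladders rested on single libraries: leaving out vehicle-treated bladder 1, the lowest, gave 17 members, leaving out bladders 2, 3 or 4 gave 1, 1 and 0, and leaving out any middle-aged bladder gave 0.

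Summed over the 32 members, water-treated bladders were at 182, 233, 155, 174 and 147 CPM and vehicle-treated ones at 128, 186, 274 and 171 CPM. The D+Q-treated bladders ran from 159 to 203 CPM with a median of 165. Vehicle-treated bladder 1 lay within the middle-aged range, and vehicle-treated bladder 3 was about as high as the highest untreated old bladder. Mki67 was at 16.5, 28.1, 7.48, 11.5 and 7.95 CPM in water-treated bladders, at 4.09, 14.1, 29.8 and 13.7 in vehicle-treated ones and at 10.4 to 19.1 (median 12.4) after D+Q. Top2a was at 11.4, 13.4, 6.10, 8.69 and 5.53 CPM with water, at 3.90, 9.60, 19.9 and 7.85 with vehicle and at 7.03 to 12.4 (median 7.53) with D+Q. For both genes bladder 2 was the highest with water, and bladders 3 and 1 were the highest and lowest with vehicle.

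The cyclins and their regulators were spread in a like way. Cdk1 was at 2.54, 2.60, 1.35, 1.71 and 0.814 CPM with water, at 0.698, 1.74, 2.68 and 1.76 with vehicle and at 1.33 to 2.51 (median 1.85) with D+Q. Ccnb1 was at 1.53, 1.77, 0.591, 0.726 and 0.477 CPM with water, at 0.650, 1.13, 2.21 and 1.38 with vehicle and at 0.698 to 1.60 (median 0.912) with D+Q. In each case water-treated bladder 5 and vehicle-treated bladder 1 were the lowest of their groups. Ube2c was at 1.59, 2.12, 0.900, 1.53 and 0.646 CPM with water, at 0.554, 2.04, 2.90 and 1.28 with vehicle and at 1.0 to 3.75 (median 1.56) with D+Q. Foxm1 was at 4.97, 3.84, 3.32, 4.05 and 3.73 CPM with water, at 3.18, 4.61, 6.93 and 2.14 with vehicle and at 3.20 to 4.80 (median 3.87) with D+Q. The lowest vehicle-treated bladder for Foxm1 was bladder 4 and not bladder 1.

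Among the kinases, Plk1 was at 5.18, 8.72, 9.17, 4.17 and 5.03 CPM with water, at 4.07, 9.65, 12.8 and 7.95 with vehicle and at 5.77 to 8.07 (median 6.46) with D+Q. Aurkb was at 2.7, 2.54, 1.04, 1.63 and 1.24 CPM with water, at 0.771, 2.01, 3.60 and 1.14 with vehicle and at 1.28 to 2.36 (median 1.49) with D+Q. Plk1 and Aurkb were both highest in vehicle-treated bladder 3. Ttk was at 0.370, 1.19, 0.366, 0.464 and 0.309 CPM with water, at 0.337, 0.563, 1.07 and 1.24 with vehicle and at 0.195 to 0.906 (median 0.423) with D+Q. Birc5 was at 1.96, 2.25, 1.21, 1.53 and 0.871 CPM with water, at 0.698, 1.85, 3.29 and 0.952 with vehicle and at 1.0 to 2.08 (median 1.58) with D+Q. Of these, Aurkb and Birc5 were higher than in middle age after D+Q (log2 0.89 and 1.02, SE 0.217 and 0.252, adjusted p = 0.0164 and 0.0182), and Aurkb also with water (log2 1.08, SE 0.304, adjusted p = 0.0350).

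The replication genes and Kif11 completed the treated groups. Mcm2 was at 16.7, 18.8, 16.1, 17.4 and 17.0 CPM with water, at 14.8, 18, 22.3 and 21.6 with vehicle and at 14.4 to 18.8 (median 15.7) with D+Q. Mcm5 was at 10.1, 10.9, 7.51, 9.05 and 8.14 CPM with water, at 6.04, 10.3, 15.7 and 12.9 with vehicle and at 7.64 to 10.8 (median 9.02) with D+Q. All of these Mcm5 values were above the highest middle-aged one. Rrm2 was at 4.28, 5.59, 3.91, 5.06 and 3.57 CPM with water, at 3.61, 4.34, 7.81 and 5.95 with vehicle and at 4.05 to 6.10 (median 4.57) with D+Q. Kif11 was at 3.33, 5.93, 2.50, 3.65 and 1.49 CPM with water, at 1.56, 3.16, 6.79 and 3.42 with vehicle and at 2.31 to 4.38 (median 2.90) with D+Q. For Rrm2 no treated bladder overlapped the middle-aged ones, and for Kif11 1 water-treated and 1 vehicle-treated bladder did.

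Against untreated old bladders of the same age, no member passed in any treated group. The 3 comparisons share the 6 untreated bladders, so their values are given side by side only. With water, 0 of 32 members passed, against 1.0% of all genes, and 5 were lower at an unadjusted p under 0.05 (8.13% of all genes); DESeq2 called 0 members and 4.72% of all genes. With vehicle, 0 passed, against 0% of all genes, and 0 were lower at an unadjusted p under 0.05 (3.77% of all genes); DESeq2 called 0 members and 0.898% of all genes. With D+Q, 0 passed, against 0% of all genes, and 16 were lower at an unadjusted p under 0.05 (6.67% of all genes); DESeq2 called 1 member, Bub1, as lower (log2 -0.91, adjusted p = 0.0262), and 0.969% of all genes. The median log2 fold changes of the members were -0.35 with water, -0.21 with vehicle and -0.34 with D+Q, where those of all genes tested were 0.00.

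In the comparison of D+Q-treated with untreated old bladders the lowest unadjusted p belonged to Bub1 (log2 -0.91, SE 0.203), whose adjusted p by edgeR was 0.233. Bub1 was the 1 member in which every D+Q-treated bladder lay below every untreated one, which held for 61 of all 17037 genes tested. Mki67 was at log2 -0.69 (SE 0.210, adjusted p = 0.285), Top2a at -0.74 (SE 0.228, adjusted p = 0.285), Cdk1 at -0.58 (SE 0.225, adjusted p = 0.339) and Ccnb1 at -0.70 (SE 0.266, adjusted p = 0.334). Plk1 was at -0.33 (SE 0.148, adjusted p = 0.378), Foxm1 at -0.26 (SE 0.0993, adjusted p = 0.336), Rrm2 at -0.38 (SE 0.146, adjusted p = 0.334) and Mcm2 at -0.08 (SE 0.0719, adjusted p = 0.641). None of these differences passed after adjustment over all genes. Immune markers lay lower in the same comparison: 7 of 7 T cell markers (median log2 -0.65), 4 of 8 B cell markers (median -0.66), 2 of 7 germinal centre B cell markers tested and 1 of 7 macrophage markers were lower at an unadjusted p under 0.05 by edgeR, and none passed after adjustment. The T cell markers summed to 26.2 to 48.7 CPM in D+Q-treated and 42.6 to 97.2 CPM in untreated old bladders, and the B cell markers to 31.3 to 125 and 70.6 to 216 CPM. With water 2 of 7 T cell and 0 of 8 B cell markers, and with vehicle none of either list, were lower at an unadjusted p under 0.05. The part of these cells in the members' values was not tested.

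Set against its own vehicle, D+Q gave no member past the threshold: 0 of 32 passed, against 0% of all 17267 genes tested, 0 were lower at an unadjusted p under 0.05 (1.47% of all genes), and DESeq2 called 0 members and 0.0744% of all genes. The median log2 fold change of the members was -0.13, and it was 0.19 without vehicle-treated bladder 3. Mki67 was at -0.24 with an SE of 0.394 and Top2a at -0.32 with an SE of 0.352, so that differences of that size were not detectable in these 4 and 6 bladders. The coefficient of variation of the summed level was 32.4% in vehicle-treated and 9.41% in D+Q-treated bladders.

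**Figure D4:**
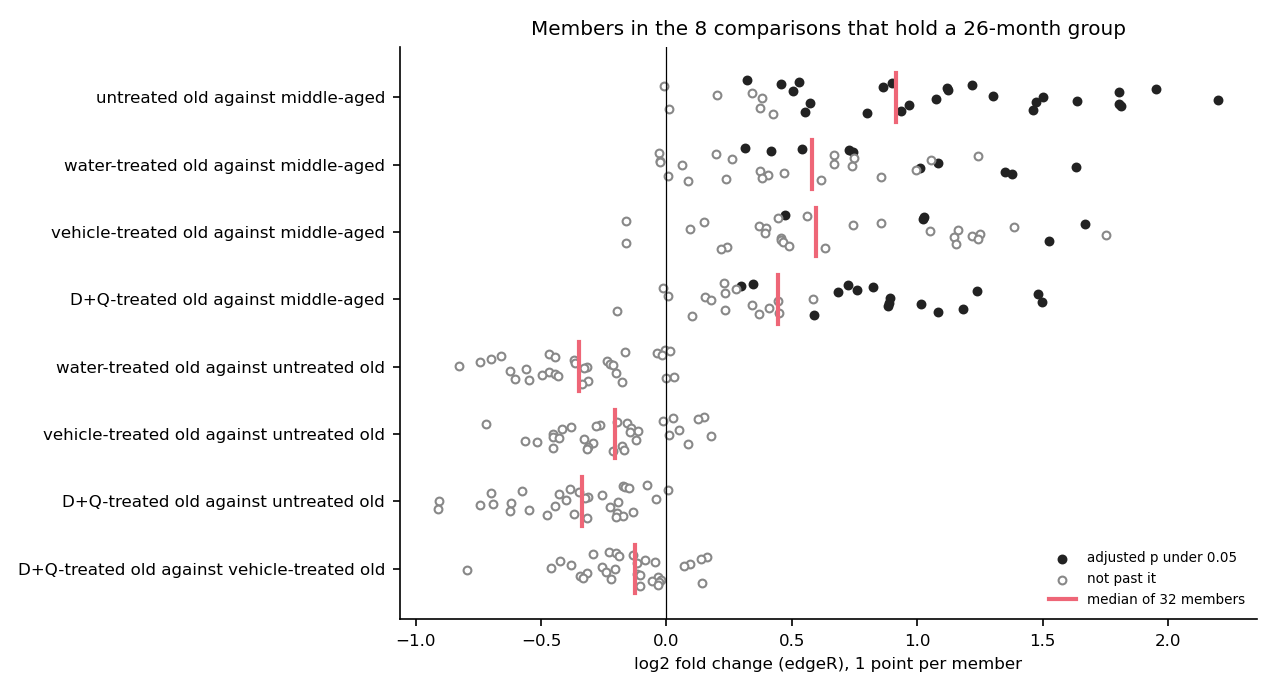
Log2 fold change (x axis, edgeR) of each of the 32 members (1 point each) in 8 comparisons that include a group at 26 months. Untreated old against young is not shown. Filled points passed an adjusted p of 0.05 and red lines are medians. Most members lie to the right of 0 in the 4 comparisons with middle age (25, 10, 5 and 16 called). None is called in the 4 comparisons among groups at 26 months.

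Other genes of the same pathway were read from lists that hold no member. Of 56 other mitotic genes, 13 were lower and 1 higher of 53 tested in middle-aged against young bladders, and 33 were higher and 1 lower of 54 tested in untreated old against middle-aged ones (median log2 -0.91 and 0.67). Their smallest adjusted p-values in the second comparison were those of Kif2c, a microtubule-depolymerising kinesin (4.22-fold), Nuf2 of the outer kinetochore (3.76-fold), Hmmr, a spindle protein (3.35-fold), and Ncapg of condensin (5.15-fold). Of 41 other replication genes, 9 were lower in the first comparison and 18 higher in the second, none in the other direction. Uhrf1, which guides maintenance methylation, rose 2.52-fold, the repair gene Brca1 1.92-fold, the exonuclease gene Exo1 3.58-fold and Clspn, of the replication checkpoint, 2.83-fold.

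Upstream of these, among 21 genes of G1 entry and its gatekeepers 5 were lower in middle-aged than in young bladders, of which Ccnd2 and Ccnd1, the D-type cyclins, fell by 0.58 each on the log2 scale, E2f7 by 1.86 and Cdk6 by 0.44. From middle to old age 10 were higher and 1 lower. The smallest adjusted p-values were those of the E2F transcription factors E2f2 (3.69-fold), E2f7 (2.40-fold) and E2f8 (2.57-fold), and of Ccne1, cyclin E1 (2.18-fold). Of the 7 Cdk inhibitors 2 were higher in middle-aged than in young bladders, and 1 was lower in untreated old than in middle-aged ones. In untreated old against young bladders 1 was higher, and the largest log2 fold change of the list was 0.675. In water-treated old against middle-aged bladders 1 was higher as well, and the largest log2 fold change was 1.02. Cdkn2c and Cdkn1a rose by 1.44-fold and 1.29-fold to middle age, and Cdkn1a, the p21 gene, fell by 0.15 on the log2 scale from middle-aged to untreated old bladders (SE 0.0390, adjusted p = 0.0136). Cdkn2a, the p16 and Arf locus often used as a senescence marker, was at a log2 fold change of 0.36 there (SE 0.175, adjusted p = 0.161). That was the largest fold change of the list in untreated old against middle-aged bladders. The values of Cdkn2a in the other comparisons are not given here, so this result covers untreated bladders only.

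Replication-dependent histone genes are transcribed in S phase. The 67 histone genes read here were taken by a pattern of symbols, and whether each is limited to S phase was not checked. Of these, 18 were tested in middle-aged against young bladders, and none passed, with a median log2 fold change of -0.01. Of 17 tested in untreated old against middle-aged bladders none was higher and 1, Hist2h2be, was lower (log2 -0.35, adjusted p = 0.0165), with a median log2 fold change of 0.18 and 9 of the 17 above 0. Their summed level was 159 to 170 CPM in middle-aged bladders and 124 to 133 CPM in 5 of the 6 untreated old ones, and 255 CPM in untreated old bladder 5. The libraries were made from total RNA.

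Markers of some other cells moved with the members and those of others did not, and their part in the results was not tested. In the young bladders the 7 fibroblast markers, collagens among them, summed to 27836, 26810, 17315, 14864, 15416 and 21740 CPM in bladders 1 to 6. Bladders 1, 2 and 6 were thus the highest for these as for the members. The fibroblast sum was 9783 to 12257 CPM in middle-aged bladders, below every young one, and 5 of its 7 genes were lower there. Endothelial markers were lower in 2 of 6 genes, Schwann cell markers in 2 of 5, basal urothelial markers in 1 of 6 and germinal centre B cell markers in 1 of 7 tested. No smooth muscle, umbrella cell, T cell or macrophage marker passed, and B cell markers were higher in 4 of 6 tested and plasma cell markers in 2 of 7.

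From middle to old age the immune markers rose with the members. The 7 T cell markers summed to 11.2 to 14.7 CPM in middle-aged and 42.6 to 97.2 CPM in untreated old bladders, and 7 of 7 were higher. The 8 B cell markers summed to 6.27 to 12.1 and then 70.6 to 216 CPM, with 7 of 8 higher. Plasma cell markers were higher in 6 of 7, macrophage markers in 6 of 7 and germinal centre B cell markers in 5 of the 7 tested of 9. Basal urothelial markers were higher in 2 of 6 and lower in 1, and umbrella cell markers, the uroplakins among them, lower in 3 of 6 with none higher. Fibroblast markers were lower in 1 of 7, smooth muscle markers in 2 of 7 and Schwann cell markers in 2 of 5, with none higher. Endothelial markers were higher in 1 of 6 and lower in 1. Each gene of every marker list had a count in some bladder of each group. Some of these genes were too low to be tested, so a count alone does not show that a cell type was present. In young bladders the T cell sum was 9.89 to 17.1 CPM and the B cell sum 3.48 to 5.24 CPM, the first overlapping the middle-aged range and the second below it, while Mki67 there reached 31.0 CPM.

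**Figure D5:**
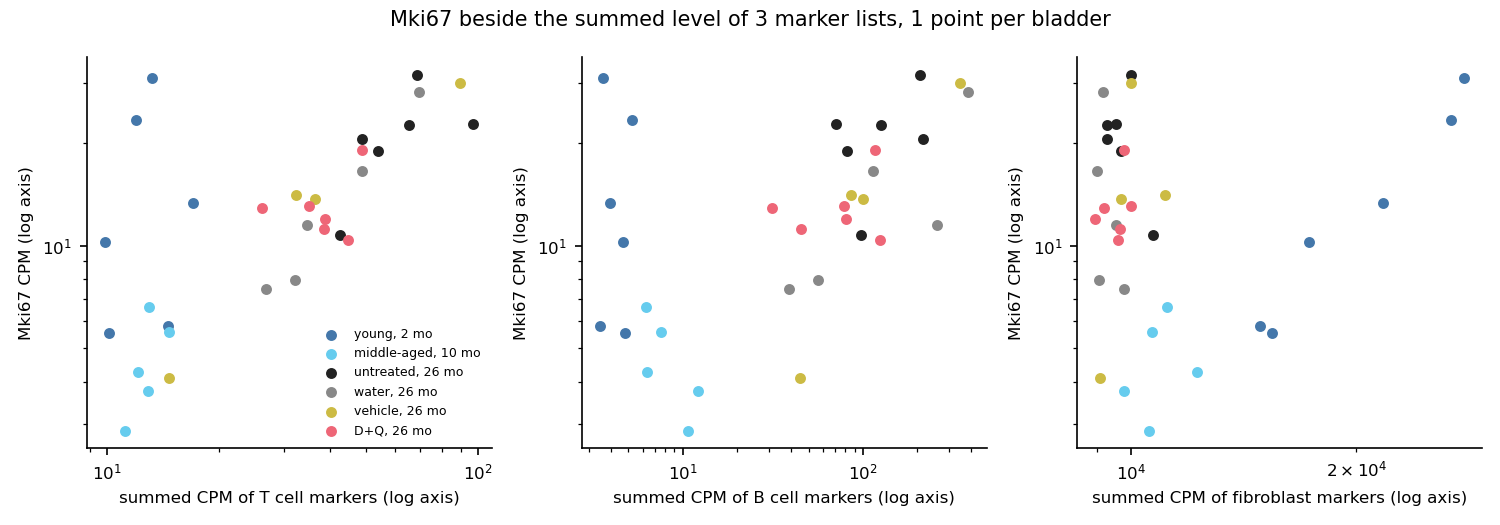
CPM of Mki67 (y axis, log) beside the summed CPM of 7 T cell, 8 B cell and 7 fibroblast markers (x axes, log) in each of the 32 bladders, coloured by group. The 26-month bladders run along the T cell axis from 14.7 to 97.2 CPM, and the young ones spread in Mki67 from 5.53 to 31.0 CPM at T cell sums of 9.89 to 17.1 CPM.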

How the data were processed

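Total RNA of 32 whole bladders, 1 library each, was sequenced by the authors with a stranded total RNA kit. Reads were aligned with STAR 2.7.3 to mm10, and the deposited counts per gene were made by the authors with featureCounts of Subread; the strand setting is not given in the sources used here. The authors also deposited a normalized table of log2 values, called TPM, which equals the log2 of each count plus 1 divided by gene length and scaled to a linear sum of 100000 per bladder. Depth is given in the report.

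From the counts, genes were kept by filterByExpr, scaled by TMM and tested for each pair of groups with edgeR 4.0.16 (quasi-likelihood, R 4.3.3), with Benjamini-Hochberg adjustment over all genes tested and a threshold of 0.05. The SE was the absolute log2 fold change over the square root of F. TPM in the report was computed from the counts and the deposited gene lengths. Alternatives were DESeq2 1.42.0, RLE factors, no filter, a mean of at least 10 counts, all 6 groups in 1 fit, limma 3.58.1 on log2(TPM + 1) or log2(TPM + 0.1), a replicate block and leaving out each bladder. Leaving out young bladders 1 and 2, or 3 and 4, was added after the data were seen. The scripts were tested on simulated data.

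The members and gene lists were chosen with earlier results of these data known. Members named with all their values were Mki67, Top2a, Cdk1, Ccnb1, Plk1, Foxm1, Mcm2 and Rrm2 and, in each role, the member of smallest adjusted p in each of the comparisons of young with middle-aged and of middle-aged with untreated old bladders; other genes of a list were named by smallest adjusted p. Genes named because they did not pass, and those that describe a role, were chosen after their values were seen.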

Additional observations from a re-analysis of the deposited data

Results flagged for a closer look

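In 19 of 120 group values examined, 1 bladder stood apart from the rest of its group by Dixon's criterion at the 95% level, which chance meets in about 1 of 20 groups. Of the D+Q-treated bladders, bladder 1 was apart for the summed members (203 CPM, others 159 to 173), Mki67 (19.1, others 10.4 to 13.1), Top2a (12.4, others 7.03 to 8.21), Ccnb1 (1.6, others 0.698 to 1.02), Aurkb (2.36, others 1.28 to 1.5) and Kif11 (4.38, others 2.31 to 2.99), and bladder 6 for Ube2c (3.75, others 1.0 to 1.68). Of the middle-aged bladders, bladder 2 was apart for the summed members (145 CPM, others 122 to 128), Cdk1 (2.25, others 1.25 to 1.5) and Ube2c (1.3, others 0.38 to 0.602), and bladder 3 for Mcm2 (15.6, others 13.1 to 13.7). Untreated old bladder 2 was apart for Cdk1 (5.02 CPM, others 1.98 to 2.86) and Birc5 (3.13, others 1.62 to 2.16). Ttk was apart in young bladder 1 (2.5 CPM, others 0.582 to 1.19) and in water-treated bladder 2 (1.19, others 0.309 to 0.464). Of the summed pathway lists, vehicle-treated bladder 4 was apart for the genes of G1 entry (754 CPM, others 809 to 819), young bladder 1 for the other replication genes (692, others 444 to 521), young bladder 3 for the Cdk inhibitors (154, others 191 to 212) and untreated old bladder 5 for the histone genes (255, others 124 to 132).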

How the results depend on the processing

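No member reversed direction past the threshold under any alternative run. The count of members lower in middle-aged than in young bladders (18) was 28 with all 6 groups in 1 fit, 2 with limma on log2(TPM + 1), 4 on log2(TPM + 0.1), and 2 to 25 when single bladders were left out, lowest without middle-aged bladder 5 and highest without young bladder 5. It was 1 without young bladders 1 and 2 and 30 without young bladders 3 and 4; DESeq2, RLE factors and both count filters gave 17 to 24. With untreated old set against middle-aged bladders the count of higher members (25) was 17 to 26 under the alternatives and 23 to 26 with single bladders left out. Between untreated old and young bladders (1) it was 2 with DESeq2, 0 with limma on either scale, 4 without young bladders 1 and 2, 2 without young bladders 3 and 4, and 0 to 1 with single bladders left out. For D+Q-treated against untreated old bladders (0) DESeq2 gave 1. Against middle age, water-treated bladders (10) and D+Q-treated ones (16) gave 2 each with all 6 groups in 1 fit, and vehicle-treated ones (5) gave 10 with DESeq2, 1 and 2 with limma on the 2 TPM scales and 0 to 17 with single bladders left out. The cause of these shifts was not tested.

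By the replicate numbers of the sample titles, 10 of 49 same-numbered pairs of bladders correlated above 0.1. Correlation here was over genes, between the log2 deviations of the paired bladders from the means of their own groups. The correlations ran from -0.325 to 0.242, and no comparison had every pair above 0.1. In the middle-aged, vehicle-treated and water-treated groups some title numbers differ from the numbers in the library names. Pairing by the library numbers was not tested, so the check cannot exclude it. With a replicate block by title number the counts were 7 (middle-aged against young), 2 (untreated old against young), 16 (water-treated against middle-aged) and 0 (vehicle-treated against middle-aged).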

Other observations

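Across the 21 bladders at 26 months Mki67 was set beside the marker lists within groups. After each group's mean was subtracted on the log2 scale, Pearson's r between Mki67 and the mean of the T cell markers was 0.904 (100000 permutations within groups, two-sided p = 7e-05, 0.00077 after adjustment over 11 lists) and Spearman's rho 0.839 (p = 0.00012, adjusted 0.0013). Without the 2 bladders farthest from the median of the T cell score r was 0.806. For the other immune lists r was 0.773 (germinal centre B cell, adjusted p = 0.0055), 0.713 (B cell, 0.011), 0.626 (macrophage, 0.049) and 0.611 (plasma cell, 0.051), with permutation tests of the same kind. Spearman's rho for these 4 lists was 0.634 (adjusted permutation p = 0.037), 0.6 (0.055), 0.522 (0.082) and 0.452 (0.12), so that by rank the B cell and macrophage relations no longer passed. Without the 2 farthest bladders r was 0.676, 0.621, 0.575 and 0.464. For the fibroblast, endothelial, urothelial, smooth muscle and Schwann cell lists r lay between -0.433 and 0.246, and no adjusted p was under 0.13. These relations were chosen after the values were seen. The lists were not tested against each other, so their relations to Mki67 need not be separate. No other gene was set beside the lists in this way.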
